A study of Mus musculus with 6 samples.

Results

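The Bcl-2 family decides whether a T cell keeps its mitochondria intact or dies. The 10 genes described here are 4 survival genes (Bcl2, Bcl2l1, Mcl1 and Bcl2a1c), 2 effectors (Bax and Bak1) and 4 genes of BH3-only proteins (Bcl2l11, Pmaip1, Bbc3 and Bid), chosen by name. Bcl2a1c is placed with the survival genes as a copy of the A1 gene, and whether it yields protein was not tested. Of these 10 genes, 9 had a probe whose annotation names 1 gene, out of 19929 such genes on the array, and where a gene had several the probe with the highest mean was used. Bax had no probe under its own symbol and was not analysed here. All 9 were among the 13950 genes tested, since their mean lay above the limit of 5.47 log2 that filtered out the dimmest 30%.

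The RNA came from pooled mouse pancreata, from which cells that bound both anti-CD8 and an H-2Db tetramer loaded with the MimA2 peptide were sorted. The mice had the H2g7/g7 haplotype on a C57BL/6 background. The cells of both groups carry AI4, a transgenic antigen receptor against a beta cell antigen. Rip-B7xAI4 mice also carry Rip-B7x, which uses the rat insulin promoter to express the inhibitory ligand B7x (Vtcn1) in beta cells, and they were resistant to type 1 diabetes. AI4 mice, without that transgene, developed the disease. There were 3 arrays from Rip-B7xAI4 mice and 3 from AI4 mice, which the labels call biological replicates. How many mice a pool held, and their age, is not stated in the labels. The transgene and the resistance to diabetes cannot be told apart in this design.

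As background, the survival proteins hold Bax and Bak1 in check at the outer mitochondrial membrane. BH3-only proteins are the sensors: they bind the survival proteins, or the effectors directly, and so release Bax and Bak1 to open the membrane. In CD8 T cells interleukin-7 and interleukin-15 maintain Bcl2, antigen receptor and NF-kappaB signals induce the A1 genes (Bcl2a1), and Bim (Bcl2l11) drives much of the death of effector cells after a response.

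The markers of the sort were measured first. All 11 T cell markers with a probe were tested, and their mean was 10.13, 10.46 and 9.78 log2 in Rip-B7xAI4 replicates 1 to 3, against 9.88, 10.45 and 10.38 log2 in AI4. The groups overlapped in that mean, but its genes differed in direction. Cd8b1, a chain of the CD8 molecule used in the sort, measured 9.53, 10.73 and 10.05 log2 in Rip-B7xAI4, against 10.48, 11.34 and 11.49 log2 in AI4, a difference of -1.001 (unadjusted p = 0.0387 and adjusted p = 0.559 by limma). Cd8a differed by -0.69 and Lat by -0.80, while Cd3e differed by 0.88 with every Rip-B7xAI4 array above every AI4 array. With Rip-B7xAI4 replicate 2 as the only array of its group, Cd8b1 differed by -0.37 and Cd8a by -0.053. Myeloid markers (16 genes) averaged 8.78, 6.19 and 8.64 log2 in Rip-B7xAI4 replicates 1 to 3, against 6.54, 5.99 and 6.30 log2 in AI4. Neutrophil markers (9 genes) averaged 8.68, 5.85 and 7.99 log2 in the same Rip-B7xAI4 order, against 5.73, 5.76 and 5.72 log2 in AI4. By these means Rip-B7xAI4 replicates 1 and 3 stood apart from the other 4 arrays. Replicate 2 was not free of such signal: it lay above every AI4 array for 3 of the 16 myeloid genes (Itgax, Cd68 and Fcer1g) and 3 of the 9 neutrophil genes (S100a8 and S100a9 among them). All 15 tested myeloid genes had a positive difference (median 1.55), and 15, 11 and 16 of the 16 lay above the filter limit on Rip-B7xAI4 replicates 1 to 3, against 13, 11 and 14 on the AI4 arrays. B cell, CD4 T cell, acinar and beta cell markers overlapped between the groups by array mean. The 6 NK cell markers averaged 6.40 to 6.56 log2 in Rip-B7xAI4 and 5.67 to 5.88 log2 in AI4, without overlap. Among them Klrb1c stood at 6.18, 5.37 and 5.40 log2 in Rip-B7xAI4, against 4.62, 4.75 and 4.57 log2 in AI4. Klre1 was also without overlap, while Nkg7, Eomes, Ncr1 and Klra8 overlapped between the groups. Only Nkg7 and Eomes had a mean above the filter limit and were tested. Vtcn1, the transgene's product, which sorted T cells need not express, stood at 6.33, 6.13 and 6.23 log2 in Rip-B7xAI4, against 6.28, 5.92 and 6.09 log2 in AI4.

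Bcl2a1c had the widest gap between the groups among the 9 measured genes. Of the 9 genes tested, 0 passed an adjusted p of 0.05 in limma (Benjamini-Hochberg over all genes tested), against 0.00717% of all genes tested (1 gene), so none is called changed. Without adjustment 2 of the 9 (22.2%) had p under 0.05, Bcl2a1c and Bak1, against 8.73% of all genes; both were higher in Rip-B7xAI4, as were 5.56% of all genes at that p, while 3.17% were lower. For 3 of the 9 (33.3%) the groups were fully separate, against 17.9% of all genes, with Bcl2a1c and Bak1 above and Bbc3 below in Rip-B7xAI4. The median log2 difference of the 9 was 0.22, and that of all tested genes was -0.10. Of the 9 differences 5 were positive and 4 negative, while 61.0% of all tested genes had a negative one. Bcl2a1c was tested through its Rip-B7xAI4 level alone, so these counts and this median are a description and no support for a difference. Differences throughout are Rip-B7xAI4 minus AI4 on the log2 scale.

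**Figure D1:**
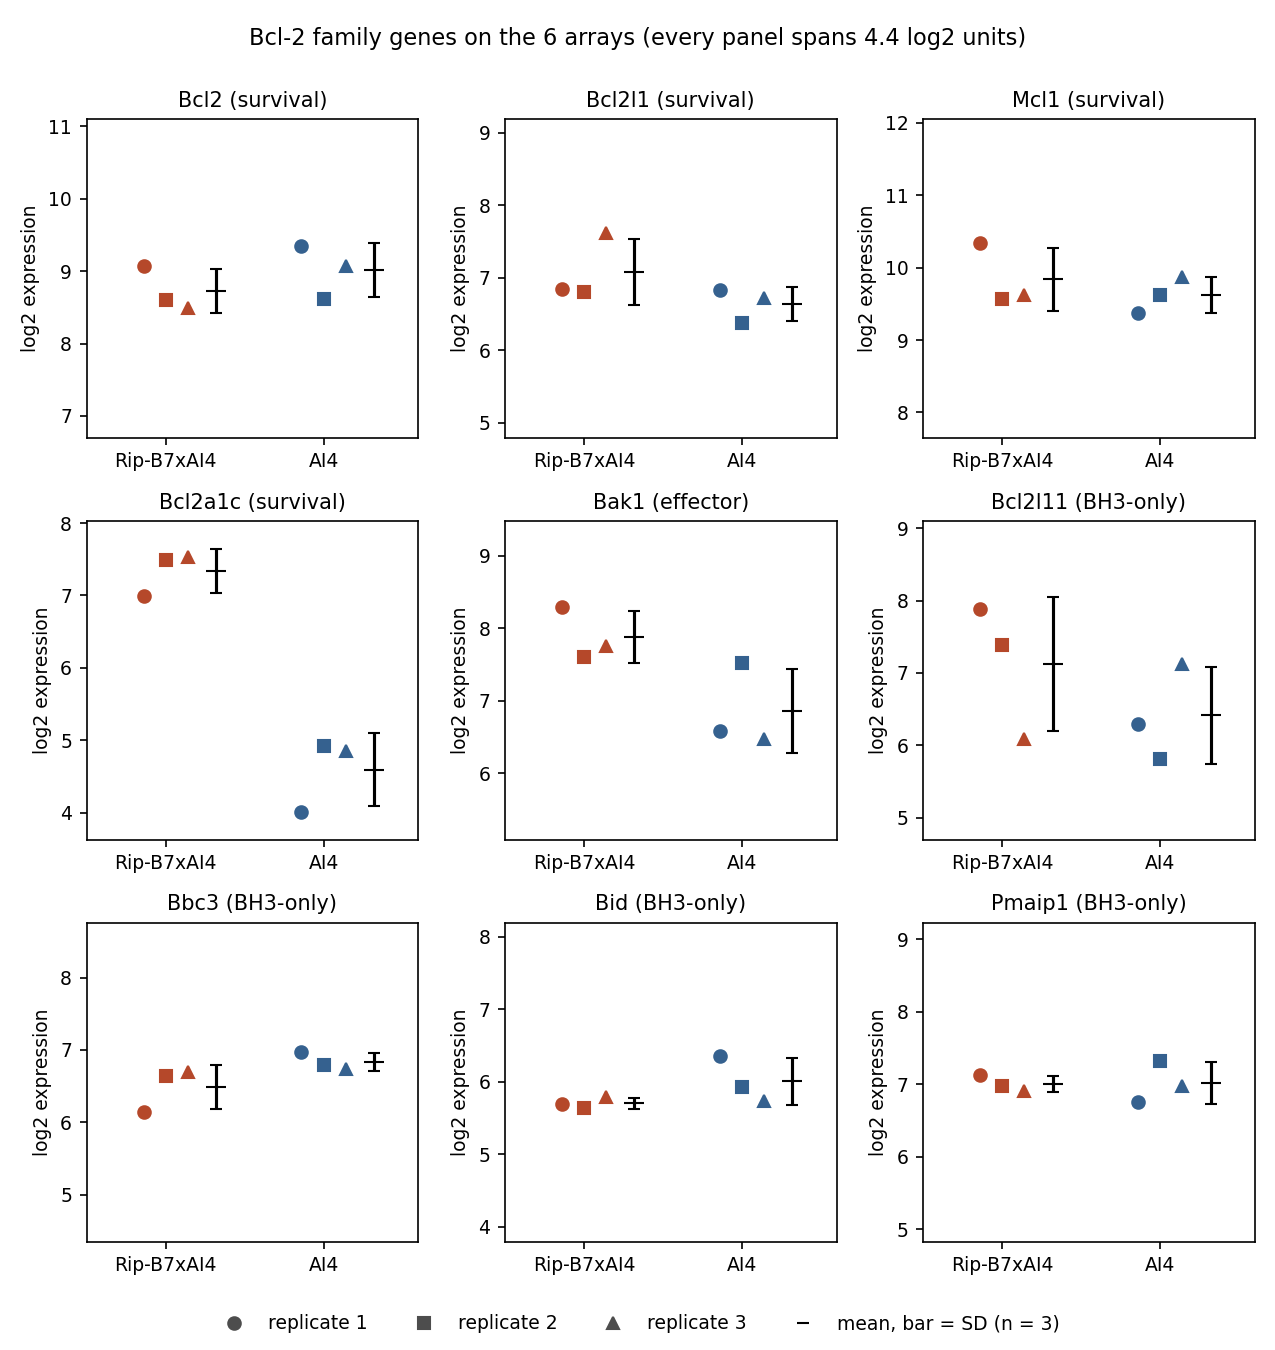
Log2 expression (vertical axis) of the 9 measured Bcl-2 family genes on each of the 3 Rip-B7xAI4 arrays (left in each panel) and 3 AI4 arrays (right), with the mean and SD of each group and the same span on every panel. Bcl2a1c shows a wide gap between the groups, Bak1 and Bbc3 a narrow one, and the other 6 genes overlap.

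The A1 genes exist in mice as near-identical copies, which limits what a probe for 1 of them can say. Their RefSeq promoters (GRCm38.p6, all on chromosome 9) show how close the copies are, and are printed for that reason, while the array measures transcripts and not these stretches. The stretch upstream of Bcl2a1c at chr9:114329885-114330068 (plus strand) aligned without a gap to the stretch upstream of Bcl2a1b at chr9:89199089-89199272 (plus strand), and 176 of 184 bases were the same. Capitals mark the 8 bases that differ.
Bcl2a1c: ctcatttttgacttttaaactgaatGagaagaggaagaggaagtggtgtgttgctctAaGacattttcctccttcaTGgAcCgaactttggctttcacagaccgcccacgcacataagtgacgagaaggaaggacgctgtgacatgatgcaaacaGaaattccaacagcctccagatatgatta
Bcl2a1b: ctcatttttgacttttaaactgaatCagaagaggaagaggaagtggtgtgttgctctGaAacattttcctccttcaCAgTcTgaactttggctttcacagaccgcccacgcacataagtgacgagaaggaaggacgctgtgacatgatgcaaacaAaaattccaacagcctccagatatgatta

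Within the 250 bases upstream of each start, Bcl2a1a and Bcl2a1b shared 205 of 206 aligned bases (99.5%). Bcl2a1a and Bcl2a1d shared 238 of 244 (97.5%), and Bcl2a1b and Bcl2a1d 198 of 200 (99.0%). Each alignment with Bcl2a1d also held 6 gap bases, which the percentages leave out. By these percentages of aligned bases Bcl2a1c was the most distant of the 4, at 94.3% to 95.7% identity with each of the others. Its aligned stretches were 134 to 184 bases long. The NF-kappaB consensus motif, searched on both strands, was found in 0 of these 4 windows, in 1 window each of Bcl2l1 (1 match) and Bbc3 (2 overlapping matches), and in 7.25% of 32851 promoter windows of the same length, which says only that those letters are absent from these windows.

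Bcl2a1c (probe 10589884) is a copy of the gene for A1, a short-lived survival protein that binds BH3-only proteins such as Bim. Whether this copy yields a working A1 protein was not tested. It measured 6.99, 7.49 and 7.53 log2 in Rip-B7xAI4, against 4.01, 4.93 and 4.85 log2 in AI4. The lowest Rip-B7xAI4 array stood well above the highest AI4 array, and the gap was wider than the range within either group. The log2 difference was 2.74 ± 0.30 (SE), with a 95% interval of 2.03 to 3.46 and an adjusted p = 0.145 by limma. Every AI4 value lay under the limit of 5.47 log2 that the filter placed on a gene's mean, and these levels may be near background, which was not measured here. The fitted difference and its interval are therefore those of the deposited values and no measure of how many times the RNA differed.

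A further 3 probes are annotated to all 4 copies, Bcl2a1a, Bcl2a1b, Bcl2a1c and Bcl2a1d, and cannot be assigned to 1 of them. They were brighter than the filter limit in every array and are described beside the single-copy probe, which they cannot check. Probe 10587683 measured 10.33, 11.12 and 10.42 log2 in Rip-B7xAI4, against 5.91, 6.90 and 7.71 log2 in AI4. Probe 10587690 measured 9.67, 10.48 and 9.93 log2 in Rip-B7xAI4, against 5.62, 6.55 and 7.33 log2 in AI4. Probe 10595633 measured 10.12, 10.93 and 10.35 log2 in Rip-B7xAI4, against 6.06, 6.99 and 7.72 log2 in AI4. The groups did not overlap on any of the 3 probes, and on each of them Rip-B7xAI4 replicate 2 was the highest array. A limma fit was run on all 19194 probes with a mean above the filter limit, including probes without a gene symbol. In it their log2 differences were 3.78 ± 0.48 (SE), 3.53 ± 0.45 and 3.54 ± 0.44, and the adjusted p lay between 0.191 and 0.196. The 4 A1 probes (these 3 and the single-copy probe) can share signal, so they are not independent of each other.

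Neutrophils and myeloid cells also express A1, and their markers were high on Rip-B7xAI4 replicates 1 and 3. On replicate 2 Bcl2a1c stood at 7.49 log2 and the shared probes were at their highest. On that array the myeloid mean (6.19 log2) lay within the AI4 range and the neutrophil mean (5.85 log2) just above its AI4 range (5.72 to 5.76 log2), and single markers were higher than on any AI4 array. Cd68 stood at 7.35 log2 there, against 6.21 to 6.49 log2 in AI4, Itgax at 6.73 log2, against 5.29 to 5.86 log2, and S100a9 at 7.68 log2, against 6.19 to 7.29 log2. The part of these cells in the A1 signal of replicate 2 was not tested. With replicate 2 as the only Rip-B7xAI4 array the difference of Bcl2a1c was 2.90 ± 0.45 (adjusted p = 0.566 by limma, which then takes the spread from the AI4 arrays). With the myeloid mean as a covariate it was 2.99 ± 0.42 (adjusted p = 0.662). The shared probes differed by 3.98 to 4.28 in the first of these fits and by 4.03 to 4.33 in the second. Neither fit can decide the part of myeloid cells and neutrophils in the A1 signal. Replicate 2 held some of their marker signal, and the myeloid mean was high on Rip-B7xAI4 arrays alone. In a sorted bulk sample, more cells with A1 RNA and more A1 RNA per cell cannot be told apart.

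**Figure D2:**
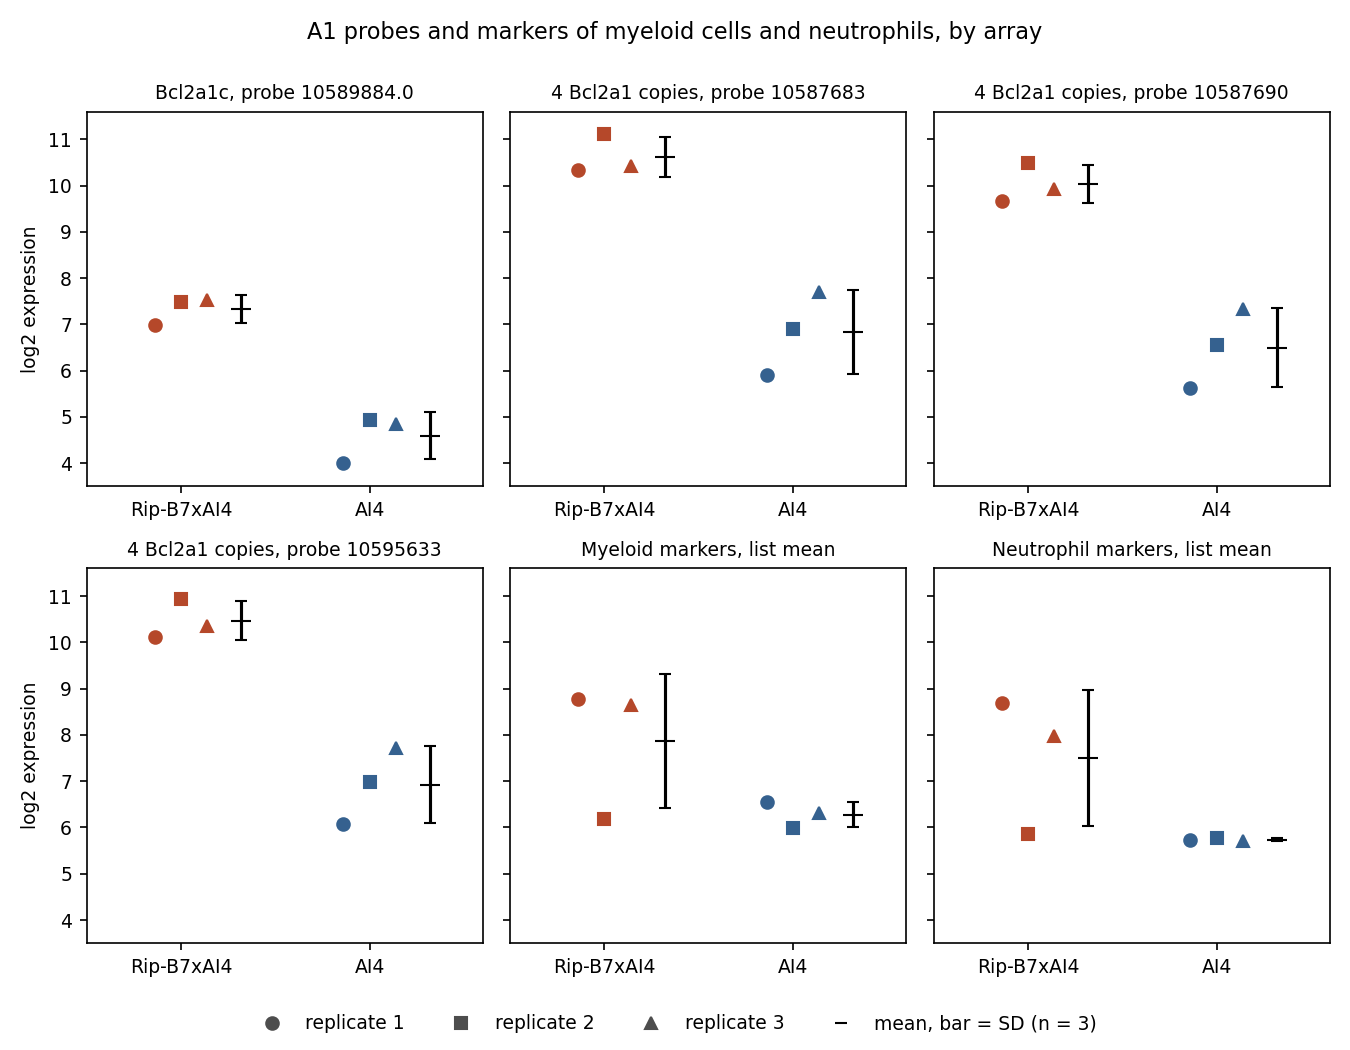
Log2 expression (vertical axis) by array of the Bcl2a1c probe, the 3 probes shared by the 4 Bcl2a1 copies, and the means of the myeloid and neutrophil marker lists, with group means and SD. On all 4 A1 probes every Rip-B7xAI4 array lies above every AI4 array, while for the marker lists Rip-B7xAI4 replicates 1 and 3 lie high and replicate 2 lies near the AI4 arrays.

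The other 3 survival genes overlapped between the groups. Bcl2, the survival protein of resting and memory T cells, measured 9.06, 8.60 and 8.49 log2 in Rip-B7xAI4, against 9.35, 8.61 and 9.08 log2 in AI4. Its log2 difference was -0.29 ± 0.26 (SE; 95% interval -0.91 to 0.32; adjusted p = 0.651 by limma), and AI4 replicate 2 lay among the Rip-B7xAI4 values. After quantile normalization, or without Rip-B7xAI4 replicate 1 or AI4 replicate 2, the groups no longer overlapped, with differences of -0.50, -0.47 and -0.49. Bcl2 passed in none of these fits, and 16.6%, 24.0% and 25.1% of all tested genes did not overlap in them. The nearest pair was almost level without Rip-B7xAI4 replicate 1 (8.60 against 8.61 log2) and without AI4 replicate 2 (9.06 against 9.08 log2). With Rip-B7xAI4 replicate 2 alone the difference was -0.41, again without overlap, as for 52.1% of all tested genes. Other settings made the difference smaller: it was -0.14 with array weights, -0.18 when Rip-B7xAI4 replicate 3 was left out and -0.13 when AI4 replicate 1 was.

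Bcl2l1 encodes Bcl-xL, the form that costimulation through CD28 induces. It measured 6.84, 6.80 and 7.61 log2 in Rip-B7xAI4, against 6.83, 6.37 and 6.73 log2 in AI4. Replicate 3 of Rip-B7xAI4 was the high array, and the other 2 were close to the highest AI4 arrays. The difference was 0.44 ± 0.27 (SE; 95% interval -0.21 to 1.09; adjusted p = 0.591 by limma), and it was 0.18 without Rip-B7xAI4 replicate 3 and 0.16 with the myeloid mean as a covariate.

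Mcl1, a rapidly turned over survival protein that T cells need at all stages, measured 10.34, 9.56 and 9.62 log2 in Rip-B7xAI4, against 9.37, 9.62 and 9.87 log2 in AI4. Only Rip-B7xAI4 replicate 1 lay above the AI4 values. The difference of 0.22 ± 0.27 (SE; 95% interval -0.41 to 0.85; adjusted p = 0.714 by limma) was -0.029 without that array and -0.0081 after quantile normalization.

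Bak1, the effector measured here, forms pores in the outer mitochondrial membrane. It measured 8.29, 7.60 and 7.76 log2 in Rip-B7xAI4, against 6.58, 7.53 and 6.47 log2 in AI4. The groups did not overlap, but AI4 replicate 2 came close to the lowest Rip-B7xAI4 array. The difference was 1.03 ± 0.34 (SE), with a 95% interval of 0.22 to 1.83, an unadjusted p = 0.0200 and an adjusted p = 0.512 by limma. Its unadjusted p exceeded 0.05 when Rip-B7xAI4 replicate 1 was left out (0.0676), and likewise for AI4 replicate 1 (0.0626) or AI4 replicate 3 (0.0681). With array weights the difference was 0.53 and the unadjusted p 0.138. With Rip-B7xAI4 replicate 2 alone the difference was 0.74 ± 0.51 (unadjusted p = 0.208), and with the myeloid mean as a covariate 0.85 ± 0.49 (unadjusted p = 0.133). Bak1 was highest on Rip-B7xAI4 replicate 1, the array with the highest myeloid and neutrophil means. The part of these cells in its difference was not tested, and the last 2 fits cannot decide it.

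Among the BH3-only genes, Bcl2l11 varied most. It encodes Bim, which Foxo3 can induce and which binds every survival protein of the family. It measured 7.89, 7.38 and 6.09 log2 in Rip-B7xAI4, against 6.30, 5.82 and 7.13 log2 in AI4. Of the Rip-B7xAI4 arrays 2 exceeded the highest AI4 value, and the third lay below 2 of the 3. The SD within groups (0.93 in Rip-B7xAI4 and 0.66 in AI4) pooled to 0.81, which was larger than that of 92.7% of the tested genes. The difference was 0.71 ± 0.53 (SE; 95% interval -0.55 to 1.97; adjusted p = 0.619 by limma). It ranged from 0.32 without Rip-B7xAI4 replicate 1 to 1.22 without Rip-B7xAI4 replicate 3, where the unadjusted p was 0.0288 and the adjusted p 0.505.

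Bbc3 encodes Puma, a BH3-only protein induced by p53 and by Foxo3. It measured 6.14, 6.64 and 6.70 log2 in Rip-B7xAI4, against 6.97, 6.79 and 6.74 log2 in AI4. Every Rip-B7xAI4 array was lower than every AI4 array, though the nearest pair was almost level. The difference was -0.34 ± 0.21 (SE; 95% interval -0.84 to 0.15; adjusted p = 0.589 by limma), and -0.16 without Rip-B7xAI4 replicate 1, the lowest array. For genes as a whole, 11.9% had all Rip-B7xAI4 arrays below all AI4 arrays, and 5.99% had them above.

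The FOXO motif GTAAACA, searched on both strands, was present in 1 of the RefSeq promoter windows of each of these 2 genes, and in 3.17% of all 32851 windows of 250 bases. They are shown because both genes are known targets of FOXO factors. The match is a description of letters, not of binding. Capitals mark it (on the opposite strand in Bbc3), 227 bases before the start of Bcl2l11 (chr2:128125788-128125847, plus strand, GRCm38.p6) and 167 bases before a start of Bbc3 (chr7:16310064-16310130, plus strand).
Bcl2l11: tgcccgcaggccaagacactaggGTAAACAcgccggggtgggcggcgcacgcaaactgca
Bbc3: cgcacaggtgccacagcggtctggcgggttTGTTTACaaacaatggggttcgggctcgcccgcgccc

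Bid is cut by caspase-8 or by granzyme B and then activates Bax and Bak1. It measured 5.70, 5.63 and 5.79 log2 in Rip-B7xAI4, against 6.36, 5.93 and 5.73 log2 in AI4, and AI4 replicate 3 lay within the Rip-B7xAI4 range. The difference was -0.30 ± 0.21 (SE; 95% interval -0.79 to 0.19; adjusted p = 0.607 by limma), and -0.12 without AI4 replicate 1. Its values lay close to the filter limit, so its level above background is uncertain.

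Pmaip1 encodes Noxa, which binds Mcl1 and A1 in preference to Bcl2. It measured 7.13, 6.97 and 6.91 log2 in Rip-B7xAI4, against 6.75, 7.32 and 6.98 log2 in AI4. The 3 Rip-B7xAI4 values fell inside the AI4 range, and the difference was -0.01 ± 0.20 (SE; adjusted p = 0.982 by limma). Its 95% interval of -0.49 to 0.47 was the narrowest among the 9 genes, and the sign of its difference turned under 5 of 16 alternative settings, median centring among them.

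**Figure D3:**
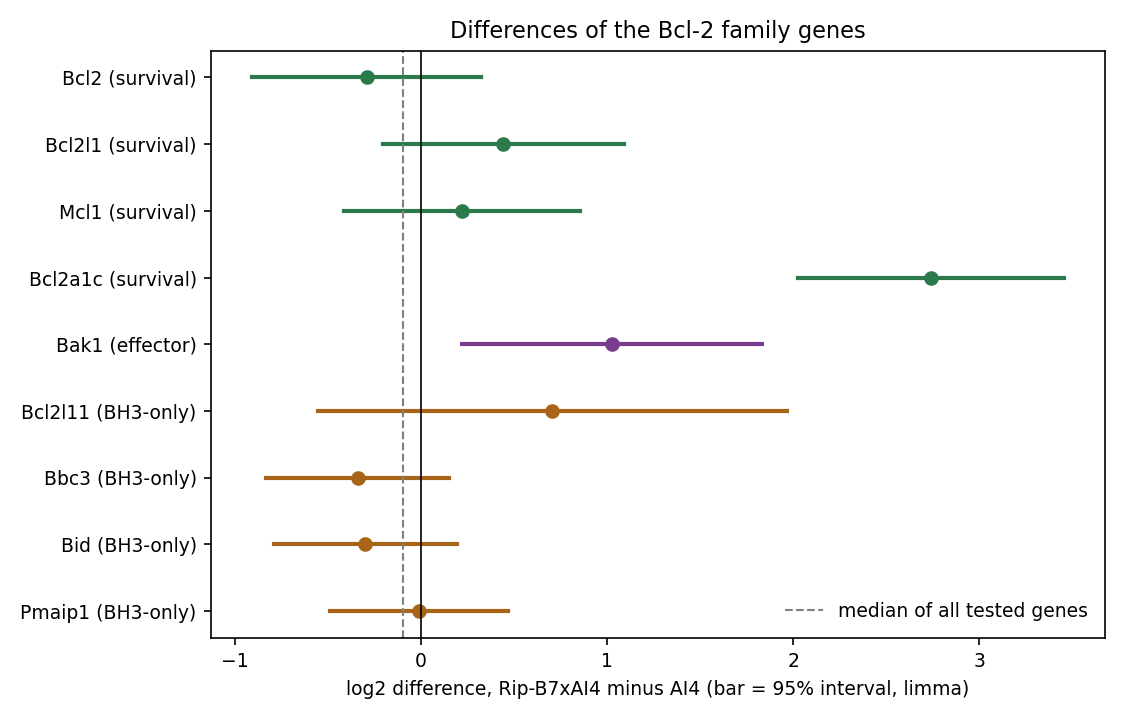
Log2 difference, Rip-B7xAI4 minus AI4 (horizontal axis), of the 9 measured genes with 95% intervals from limma, coloured by role, and the median of all tested genes as a dashed line. The intervals of Bcl2a1c (2.03 to 3.46) and Bak1 (0.22 to 1.83) lie above 0, and the other 7 include it. Bcl2a1c was tested through its Rip-B7xAI4 level alone, so its interval is a description and no support for a difference.

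The pathways around the family were described from 6 lists with 66 tested genes. Of these 66, 0 passed an adjusted p of 0.05 and 5 (7.58%) had an unadjusted p under 0.05, against 8.73% of all genes. All 5 were higher in Rip-B7xAI4, as were 5.56% of all genes at that p. The counts by list that follow stand against the same 8.73%. Among 9 other tested genes of the family or related to it, 0 had an unadjusted p under 0.05 and the median difference was -0.10, as for all genes. Bnip3l, which marks mitochondria for removal, differed by 0.64 ± 0.32 (SE), and by 0.37 to 0.92 with 1 array left out. Bok, a relative of Bax, differed by -0.28 ± 0.18, the BH3-only gene Bik by -0.29 ± 0.19, and Bcl2l2, which encodes the survival protein Bcl-w, by -0.23 ± 0.18.

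Downstream of Bax and Bak1, 11 of 14 tested genes of the mitochondrial death pathway had a positive difference, while 61.0% of all tested genes had a negative one. The genes behind that share were not matched to the 14 for brightness. The median of the 14 was 0.53 against -0.10 for all genes, which was not tested, and 1 of the 14 had an unadjusted p under 0.05. That gene was Cycs (cytochrome c), at 10.47, 10.77 and 10.29 log2 in Rip-B7xAI4, against 10.33, 9.22 and 9.26 log2 in AI4. Its difference was 0.91 ± 0.33 (SE; adjusted p = 0.545 by limma), AI4 replicate 1 overlapped the Rip-B7xAI4 values, and Cycs has processed pseudogenes that can share signal. As the mean of its 3 probes it differed by 0.48 (unadjusted p = 0.118), and its unadjusted p also exceeded 0.05 when any of 4 of the 6 arrays was left out. Apaf1, the scaffold that cytochrome c activates, differed by 0.75 ± 0.32, the mitochondrial flavoprotein gene Aifm1 by 0.61 ± 0.30 and Casp2 by 0.44 ± 0.25. With 1 array left out Aifm1 ranged from 0.31 to 0.77 and Casp2 from 0.25 to 0.64. After quantile normalization Cycs differed by 0.65, Apaf1 by 0.72, Aifm1 by 0.49 and Casp2 by 0.44.

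Of 7 tested genes listed as caspase inhibitors, 1 had an unadjusted p under 0.05 and the median difference was 0.30. Birc5 (survivin), which also works in mitosis, measured 9.62, 9.09 and 8.53 log2 in Rip-B7xAI4, against 7.46, 6.27 and 6.54 log2 in AI4. It differed by 2.32 ± 0.40 (SE; adjusted p = 0.191 by limma) without overlap. Naip2, whose part as a caspase inhibitor was not tested, differed by 0.53 ± 0.27. Xiap, which blocks caspases 3, 7 and 9, differed by 0.41 ± 0.37. Cflar, the inhibitor of caspase-8, differed by 0.30 ± 0.31, a sign that turned with the myeloid mean as a covariate (-0.16). Xiap differed by 0.059 without Rip-B7xAI4 replicate 1.

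Of 10 tested genes in the death receptor arm that leads to Bid, 1 had an unadjusted p under 0.05 and the median difference was -0.004. Tnfrsf1a, a receptor for tumour necrosis factor, measured 7.73, 7.48 and 7.60 log2 in Rip-B7xAI4, against 7.14, 7.20 and 7.27 log2 in AI4, a difference of 0.40 ± 0.16 (SE; adjusted p = 0.564 by limma) without overlap. Its unadjusted p of 0.0410 exceeded 0.05 with any 1 array left out, and was 0.123 with the replicate block and 0.128 after quantile normalization, where the difference was 0.26. The adaptor Fadd differed by 0.60 ± 0.39 and Traf2 by -0.26 ± 0.19. With 1 array left out they ranged from 0.13 (without AI4 replicate 1) to 0.84 and from -0.35 to -0.14. The receptor Fas differed by -0.41 ± 0.38, and by 0.14 with the covariate.

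Among 20 tested cytokine and transcription inputs, 2 had an unadjusted p under 0.05 and the median difference was -0.07. Both are receptor chains for interleukin-2, and Il2rb also serves interleukin-15. Il2rb measured 11.34, 10.90 and 10.20 log2 in Rip-B7xAI4, against 9.36, 10.11 and 9.71 log2 in AI4, a difference of 1.08 ± 0.34 (SE; adjusted p = 0.494 by limma) without overlap. Il2ra differed by 0.88 ± 0.36 with overlap (adjusted p = 0.566). The unadjusted p exceeded 0.05 when any of 5 of the 6 arrays was left out for Il2ra, and without AI4 replicate 1 for Il2rb (0.0522). Il7r, whose signal maintains Bcl2, measured 9.74, 10.57 and 8.72 log2 in Rip-B7xAI4, against 10.46, 10.61 and 11.34 log2 in AI4, a difference of -1.12 ± 0.48 (adjusted p = 0.566). It was -0.23 with Rip-B7xAI4 replicate 2 as the only array of its group. Il15ra, which presents interleukin-15, differed by -0.35 ± 0.17. Of the 6 genes listed for turnover of the Mcl1 protein, 0 had an unadjusted p under 0.05. Trib1, a pseudokinase whose part in that turnover was not tested, differed by 0.67 ± 0.29. The ubiquitin ligase genes Huwe1 and Fbxw7 differed by -0.45 ± 0.26 and 0.89 ± 0.68, and the deubiquitinase gene Usp9x by 0.52 ± 0.60. These values moved with the arrays used: Trib1 differed by 0.087 with Rip-B7xAI4 replicate 2 alone, Huwe1 by -0.24 without Rip-B7xAI4 replicate 3, and Fbxw7 by 0.11 without AI4 replicate 1 and 1.53 without AI4 replicate 3, while the sign of Usp9x turned.

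**Figure D4:**
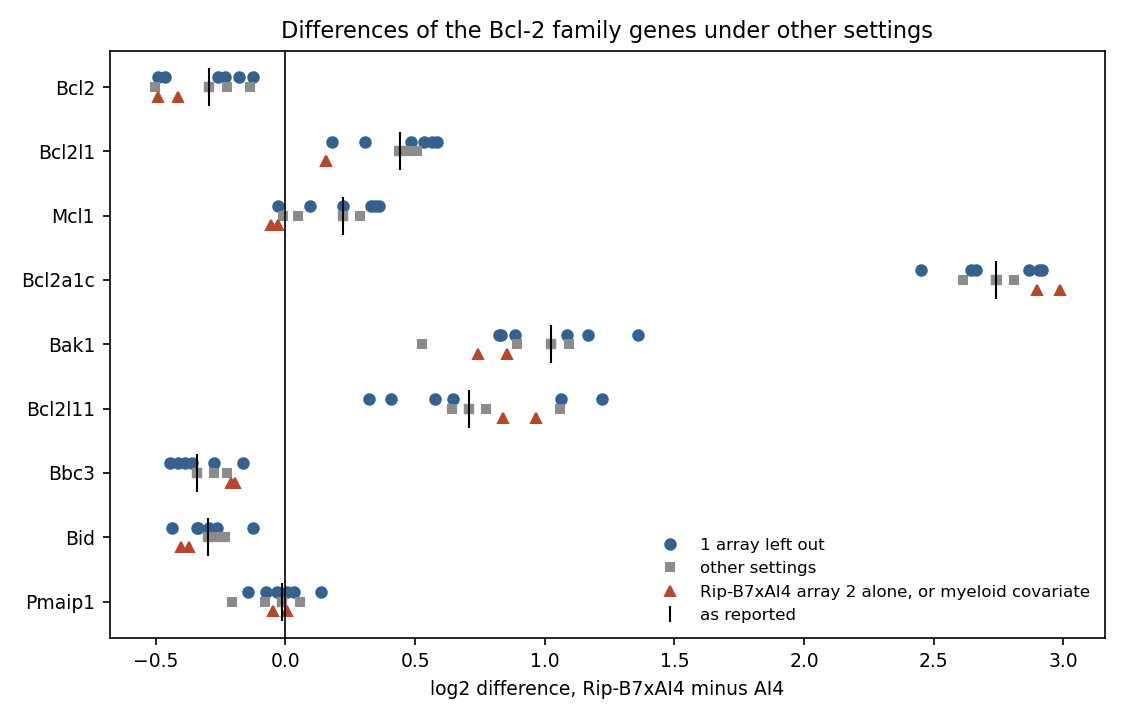
Log2 difference, Rip-B7xAI4 minus AI4 (horizontal axis), of the 9 measured genes as reported (vertical bars), with 1 array left out, under other settings, and in the 2 fits added after the data were seen. Bcl2a1c lies between 2.45 and 2.99 in all of them, and Mcl1 and Pmaip1 lie on both sides of 0.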

How the data were processed

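The authors deposited 1 normalized log2 value per probe for each of 6 single-colour arrays (the log2 scale was inferred from their range). Per the submitters' processing notes they used Affymetrix Expression Console, with no version or algorithm given. Array medians lay between 5.94 and 6.10, and no further normalization was applied. Of 28325 probes, 21760 had 1 gene symbol, 1621 several and 4944 none; 21669 matched a RefSeq gene table (GRCm38.p6). The probe with the highest mean was kept per gene, and genes in the lowest 30% by mean were left out of the tests. Groups came from the titles. limma 3.58.1 (R 4.3.3) fitted 1 group term to all tested genes, two-sided, with Benjamini-Hochberg adjustment over all of them and a limit of 0.05. Precision is limited by the number of arrays (3 in each group), and an exact permutation test could not go below p = 0.10.

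The members and lists were chosen with earlier results of these data known. Named are all members and up to 4 genes of each pathway list by smallest p; of each marker list, the counts, array means and up to 3 genes. Vtcn1, Cd8a, Klrb1c and the other NK cell markers were added after their values were seen. Alternatives were a replicate block, each array left out, quantile normalization, median centring, other filters, averaged probes per gene, array weights, and trend with robust eBayes. The other 2 were added after the data were seen: Rip-B7xAI4 replicate 2 alone, and a myeloid covariate. Promoter windows (12 of 13 symbols matched) were aligned with Biopython 1.88.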

Additional observations from a re-analysis of the deposited data

How the results depend on the processing

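The number of members past the limit stayed at 0 under the alternatives run, except 1 with array weights (Bcl2a1c, adjusted p = 0.0373 by limma). Since Bcl2a1c was tested through its Rip-B7xAI4 level alone, that pass is no support for a difference. The number of all genes past the limit was 0 to 22 with 1 array left out, 38 with array weights, and 0 with the replicate block, with Rip-B7xAI4 replicate 2 alone and with the myeloid covariate. Members with an unadjusted p under 0.05 numbered 1 to 3 with 1 array left out (5.48% to 11.2% of all genes), and 1 with the 50% filter (9.05%), array weights (17.2%), Rip-B7xAI4 replicate 2 alone (4.401%) and the covariate (4.06%); under the 50% filter Bcl2a1c and Bid were not tested. Members without overlap numbered 4 to 5 with 1 array left out (24.0% to 36.7% of all genes), 4 with median centring (15.6%) and 6 with replicate 2 alone (52.1%), where fewer arrays make overlap rarer. Over 47 named genes and probes, 722 of 742 values kept their sign and side of the limit. The replicate block, the other filters and trend with robust eBayes leave a gene's difference unchanged, so no sign could turn there. None of these genes or probes passed the limit as reported, so the tally is a description and no measure of robustness. Signs turned for Pmaip1 (-0.15 to 0.14 with 1 array left out, 0.054 with median centring, 0.0078 with the covariate) and Mcl1 (-0.029 to 0.36 with 1 array left out, -0.0081 after quantile normalization, -0.057 with replicate 2 alone, -0.029 with the covariate). They also turned for Usp9x (-0.14 to 0.96 with 1 array left out, -0.030 with array weights), Cflar (-0.17 with replicate 2 alone, -0.16 with the covariate) and Fas (0.058 and 0.14 in the same fits); the cause was not tested. Replicate numbers did not pair the samples (correlations of deviations -0.082, 0.0565 and -0.221); with the replicate block 2 members had an unadjusted p under 0.05. A pseudocount was not needed for log2 values.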
